A study of Mus musculus with 2 samples.

Results

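Macrophages that carried transcripts of *Cxcl9* together with *Serpina3g*, *Iigp1* and *Gbp2* were picked out of the CD45+ cells of MC38 tumors and described as Cxcl9 interferon-gamma type macrophages. A kept cell was a member when it held at least 5 *Lyz2* UMIs (unique molecular identifiers, each counting 1 captured mRNA molecule) and no UMI of *Cd3d*, *Cd3e* or *Cd3g*. It also needed at least 2 UMIs of *Cxcl9*, at least 3 UMIs summed over *Serpina3g*, *Iigp1* and *Gbp2*, and fewer than 3 UMIs summed over *Cbr2*, *Folr2* and *Fcrls*. Cells in which 4 or more of the 6 cell cycle genes *Top2a*, *Mki67*, *Birc5*, *Ccna2*, *Ube2c* and *Prc1* had a UMI were left out. In all, 921 of 9911 kept cells were members. They were 650 of 5078 kept cells from control tumors and 271 of 4833 from telmisartan tumors. Since these genes chose the members, their own values are given below as description only.

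The study asked how telmisartan, a blocker of the angiotensin II type 1 receptor, acts on immune cells of a growing tumor. MC38 is a mouse colon cancer line, and its cells were placed under the skin of female C57BL/6 mice aged 6 to 8 weeks. Both groups were dosed by gavage every day, the control group with vehicle and the other with telmisartan at 5 mg/kg, and tumors were taken on day 13. Live CD45+ cells of 5 mice were pooled in each group, marked with a Sample Tag (an oligonucleotide-labelled antibody) for that pool, and loaded together in 1 BD Rhapsody capture. The methods place the first dose at implantation, whereas the design text deposited with the data has mice assigned to the groups once tumors had formed. With 1 pool per group the spread between mice is unknown, so no difference between groups was tested and the effect of the drug and the difference between pools cannot be told apart. Every interval below is a 95% interval for counting error only, by the exact Clopper-Pearson method for shares and the exact conditional binomial method for log2 ratios.

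Interferon-gamma from T cells and NK cells binds its receptor on macrophages, activates JAK kinases, and through transcription factors such as IRF1 turns on a large set of genes. These include the chemokines that recruit T cells through the receptor CXCR3, the guanylate-binding proteins and immunity-related GTPases that attack vacuoles of intracellular microbes, and MHC class II, whose genes need the coactivator CIITA. In tumors, macrophages with this program are known as a source of CXCL9 and CXCL10 and also carry checkpoint ligands such as PD-L1.

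The deposited table held 20726 putative cells, 27031 genes and 107214449 UMIs. Members held 9694449 UMIs, of which 7190106 came from control and 2504343 from telmisartan cells. The median depth was 10829.5 UMIs per cell in control members and 9087 in telmisartan members, so telmisartan members held fewer UMIs per cell, for a reason that was not tested. Median genes per cell were 3085.5 and 2778, and the median share of mitochondrial UMIs was 6.83% and 7.61%. The cells used for comparison were the 6401 other macrophages, which met the same *Lyz2*, *Cd3* and cell cycle criteria without being members. Those cells had median depths of 8917 UMIs in control and 6817 UMIs in telmisartan. Levels are given as CPM (UMIs of the gene scaled to a common total per set), so a value compares the same gene between sets and never one gene with another.

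Macrophage markers were present in the members. Of the 12 counted, 6 were above 0 and none reached a log2 ratio of 1 in either direction, and their median log2 ratio of members over other macrophages was -0.13. *Csf1r*, the receptor for the main macrophage growth factor, stood at 697 CPM in members and 668 CPM in other macrophages. The complement gene *C1qa* stood at 514 and 413 CPM. Other markers were lower in members, with *Apoe*, a lipid carrier gene, at -0.94 (-1.08 with a Sample Tag share of at least 90%), *Mertk*, a receptor for dying cells, at -0.53 (-1.03 after thinning), *Adgre1* at -0.46 and *Cd68* at -0.36. The markers were thus present but not all at the level of the other macrophages. The rule bars cells with at least 3 UMIs over *Cbr2*, *Folr2* and *Fcrls*, so 848 such cells all fell among the other macrophages. Their macrophage markers summed to 16076 CPM, against 7997 CPM in members and 8440 CPM in all other macrophages. Lower values in members can therefore follow in part from the rule, and how far was not tested. T cell markers summed to 11.7 CPM in members, against 8607 CPM in 111 cells with at least 3 *Cd3* UMIs and fewer than 5 *Lyz2* UMIs, which serve below as the T cell reference. B cell markers summed to 1.86 CPM, with *Cd79a* at 0. Neutrophil markers summed to 25.1 CPM with *Retnlg* at 0. Tumor, stromal and endothelial markers summed to 35.2 CPM in members and 28.2 CPM in other macrophages (0.32, 0.14 to 0.49), with *Pecam1* holding the most UMIs and *Krt8* and *Krt18* at 0. Of these the epithelial marker *Epcam* had 85 UMIs in members and a ratio of 3.41 (2.87 to 3.97), and of 1.68 after thinning. The label of macrophage rests on the macrophage markers, and it comes with a qualification for *Epcam* and for dendritic cell markers.

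Dendritic cell markers were higher in the members as a set, mostly through a small part of the cells. Of 10 such markers 4 had enough counts, and all 4 (*Clec9a*, *Fscn1*, *Ccr7* and *Kit*) had a log2 ratio of at least 1 over other macrophages. *Kit* was at 1.29 and *Clec9a* at 2.55. The list summed to 85.3 CPM in members, 93.7 CPM in control and 61.1 CPM in telmisartan, against 32.3 CPM in other macrophages. *Fscn1*, which encodes an actin-bundling protein of mature dendritic cells, held the most UMIs of the list, and no marker of the list was at 0. A set of 57 members, 45 control and 12 telmisartan, held at least 3 UMIs over the list. They were picked on these markers, so their high marker levels are circular, but the other genes they carried bear on the results below. Of the 827 UMIs of the list they held 658. The 864 other members, each left with fewer than 3 by that choice, were at 18.9 CPM. That value is not comparable with the one of the other macrophages, from which no such cells were taken out. The 57 cells held 196 of the 219 *Ccr7* UMIs and 207 of the 222 *Fscn1* UMIs of all members. The same cells held 613 of 876 *Ccl22* UMIs, 989 of 2121 *Ccl17* UMIs and 44 of 85 *Epcam* UMIs. Values without these cells, an alternative chosen after the data were seen, are given beside some of the results they touch. In that alternative, cells with at least 3 UMIs over the list were left out of the other macrophages too. Without them *Ccr7* was at 0.16, *Kit* at 0.18, *Clec9a* at 2.72 and *Epcam* at 2.82, while the sign of *Fscn1* flips to -0.47. After thinning *Ccr7* was at 0.28 and *Kit* at 0.18, while *Clec9a* was at 2.79 and *Fscn1* at 1.52. By group, the ratio of members over other macrophages was 2.65 in control and -0.05 in telmisartan for *Ccr7*. Markers of NK and cytotoxic cells summed to 46.5 CPM in members and 16.9 CPM in other macrophages, and *Klrk1*, a receptor that activated macrophages can also express, held the most UMIs. A *Klrk1* UMI was found after thinning in 10.9% of members and 3.13% of other macrophages, and before it in 25.2% and 6.70%. It is a gene of T cells too (36.7% and 46.8% of the T reference), so that reference gives no background value and background was not measured for it.

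The genes that chose the members varied widely among them. On the mouse genome (build GRCm38) *Cxcl9* lies at chr5:92321347-92328079 near *Cxcl10* at chr5:92346638-92348889, both on the minus strand. *Cxcl9*, the CXCR3 ligand after which the cells are called, had a median of 22 UMIs per member, 26 in control and 15 in telmisartan, and a maximum of 291. The tenth of members with the most *Cxcl9* held 36.9% of its UMIs. *Gbp2*, a guanylate-binding protein, had a UMI in 898 members (97.5%). By contrast the immunity-related GTPase *Iigp1* was counted in 469 members (50.9%), and the serine protease inhibitor *Serpina3g* in 435 (47.2%). Of the genes in the sum, *Gbp2* was thus the one found in most members. As selected on, *Cxcl9* stood at 3262 CPM in members and 232 CPM in other macrophages, and *Serpina3g* at 154 and 9.08 CPM. For *Iigp1* the values were 319 and 49.1 CPM, and for *Gbp2* 923 and 121 CPM. *Serpina3g* and its neighbour *Serpina3f* are near-identical in sequence, as are *Tgtp1* and *Tgtp2* and several guanylate-binding, H2-Q and Ly6 genes, so the split of reads within each such pair is uncertain.

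The 65 members with exactly 2 *Cxcl9* UMIs had 600.8 CPM of *Cxcl10*, and the 108 cells kept out by 1 *Cxcl9* UMI had 617 CPM. These neighbours were close in *Cxcl10* and less so in *Ciita*, at 76.8 and 39.5 CPM. At the other threshold, 117 members with a sum of 3 had 681 CPM of *Cxcl10*, and 143 cells kept out with a sum of 2 had 577 CPM. The 380 members well inside both thresholds, with at least 10 UMIs on each, had 1749 CPM of *Cxcl10*.

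A larger share of control macrophages were members. Among 3870 control macrophages 16.8% were members (95% interval 15.6 to 18.0), and among 3452 telmisartan macrophages 7.85% (6.97 to 8.80). Of all kept cells the shares were 12.8% (11.9 to 13.8) and 5.61% (4.98 to 6.29). A rule with UMI thresholds takes in more cells where depth is higher, and depth was higher in control. When every cell was thinned to 3000 UMIs and the rule applied again, which left out 636 control and 943 telmisartan kept cells, the shares of macrophages were 9.60% (8.67 to 10.6) and 4.43% (3.73 to 5.21). Both shares were lower after thinning, and control stayed above telmisartan.

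Depth bins gave the same order from 2500 UMIs upward. Among macrophages of 2500 to 5000 UMIs, 9.07% of control and 3.73% of telmisartan cells were members. Between 7500 and 10000 UMIs the shares were 17.6% and 9.93%, and from 15000 UMIs upward 23.2% and 14.3%. Below 2500 UMIs the order was the other way, 1.46% and 1.85%, from 3 and 5 members, and the intervals overlapped. Of the rule, 2 parts were also counted alone, as description. At least 2 *Cxcl9* UMIs were found in 30.6% of control and 16.7% of telmisartan macrophages, and a sum of at least 3 in 27.9% and 18.2%. Cells lost to the quality limits also differed between groups, since the median mitochondrial share of tagged cells before the limits was 12.1% in control and 23.3% in telmisartan, and its part in the result was not tested.

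**Figure D1:**
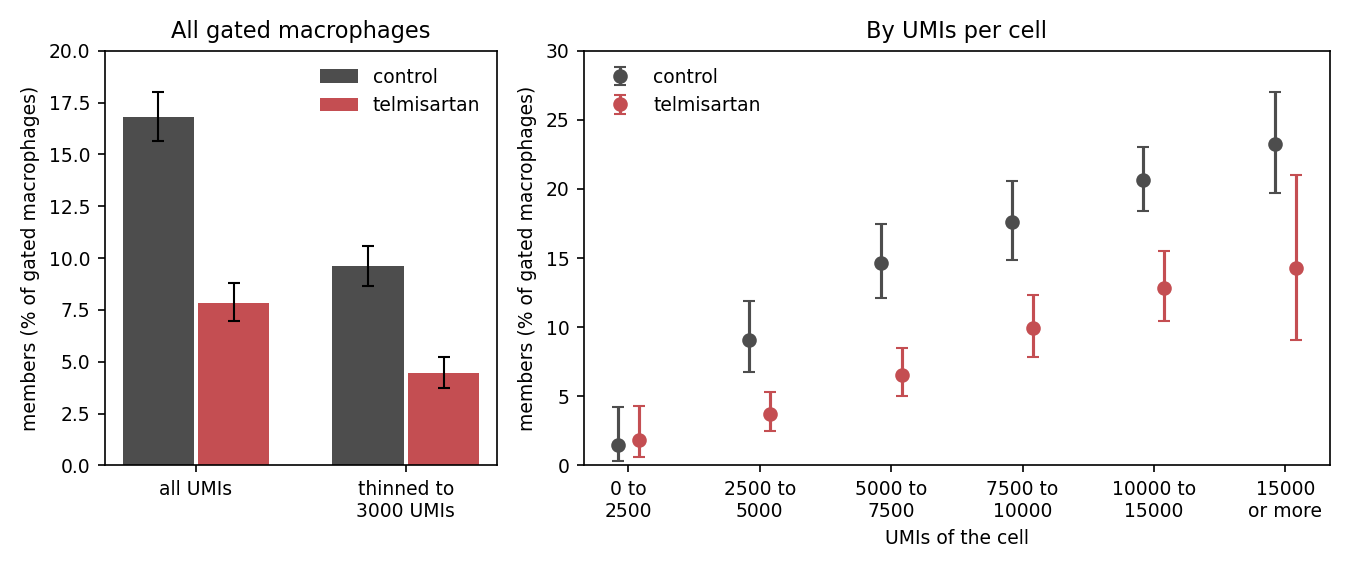
Members as a percentage of macrophages (vertical axes) in control (grey) and telmisartan (red), over all macrophages before and after thinning to 3000 UMIs on the left and by UMIs of the cell on the right, with exact 95% Clopper-Pearson intervals as error bars. Control lay above telmisartan on the left, at 16.8% and 7.85% and at 9.60% and 4.43% after thinning, and on the right in each bin except the one below 2500 UMIs.

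Away from the genes that chose them, the members differed from other macrophages in a small part of the transcriptome. Of 9822 genes with at least 200 UMIs in both sets together, 135 (1.37%) had a log2 ratio of at least 1 in the members and 138 (1.41%) of -1 or below, where the genes used for the choice are counted too. These counts describe sizes and are not calls of a test. Over all 9822 genes the median log2 ratio was -0.03. Because the members were chosen on transcripts of the same cells, all values of this comparison are description.

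The 15 genes with the highest ratios outside the rule, among genes with at least 200 UMIs in the members and higher in both groups, ranged from 3.37 to 2.08 on the log2 scale. *Dnase1l3*, a secreted DNA-degrading enzyme, led with 20.9 CPM in members and 2.03 CPM in other macrophages (log2 3.37, 95% interval 3.03 to 3.72). *Serpina3f*, a paralog of *Serpina3g*, stood at 26.6 and 2.70 CPM (3.30), with the uncertainty between paralogs just given. *Calhm6*, which encodes an ion channel of activated macrophages, stood at 58.9 and 8.12 CPM (2.86, 2.68 to 3.04). These 3 genes were scarce in the other macrophages. *Batf2*, a transcription factor that partners with IRF1, had a ratio of 2.57 (2.41 to 2.72). *Cxcl10*, the second CXCR3 ligand, had 1261 CPM in members and 232 CPM in other macrophages (2.44, 2.41 to 2.48). The remaining genes were *Gbp5*, *Gbp4*, *Mmp25*, *Gbp6*, *Slamf8*, *Cnn3*, *AW112010*, *Klrb1b*, *Gm4951* and *Ly6a*. All 15 had ratios of at least 1.84 after thinning and of at least 2.05 without the cells with dendritic markers.

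**Figure D2:**
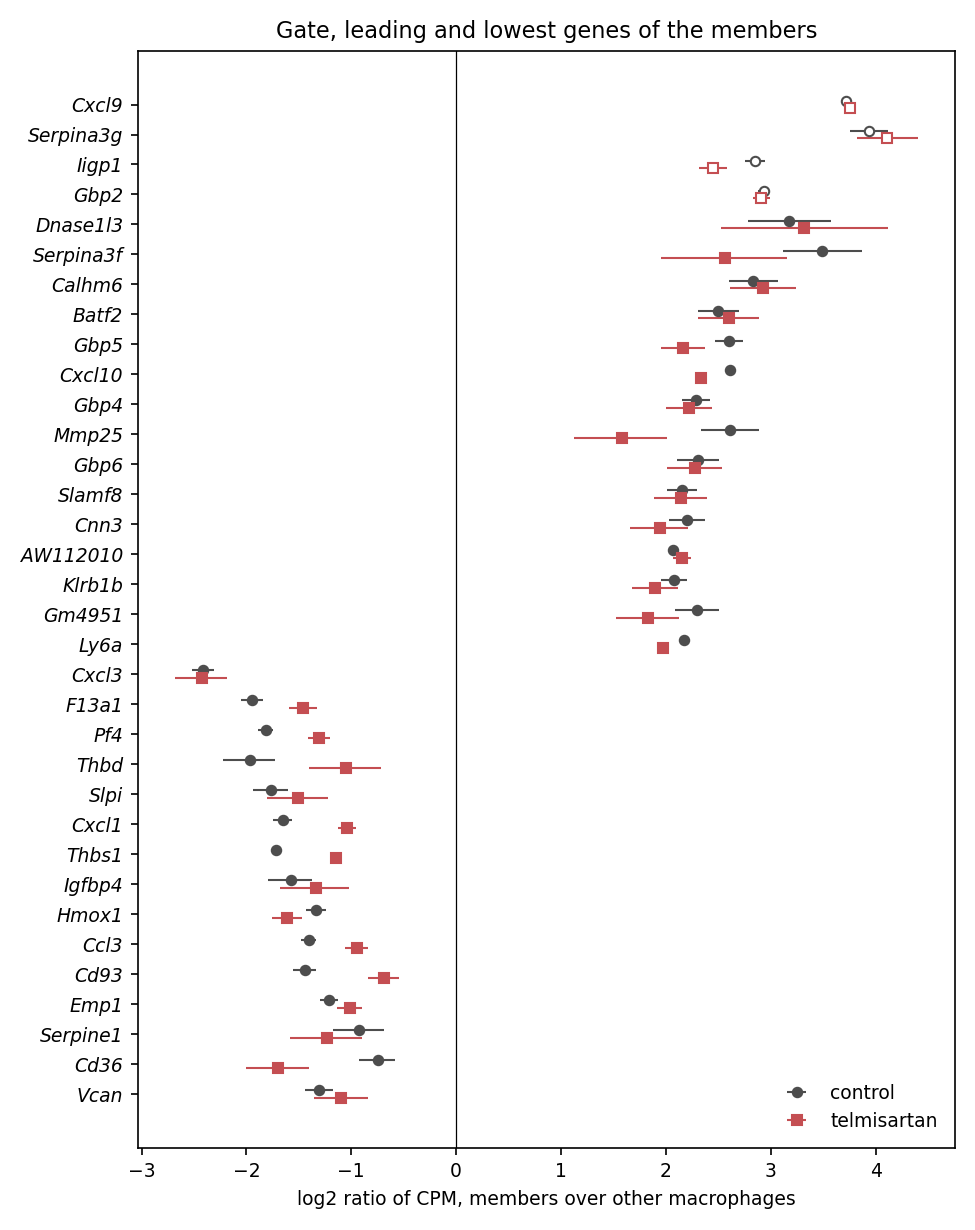
Log2 ratio of CPM in members over other macrophages (horizontal axis), in control (grey circles) and telmisartan (red squares), with exact conditional binomial 95% intervals, for the genes that chose the members (open symbols), the 15 highest other genes and the 15 lowest, each among genes with at least 200 UMIs in the members. The highest other genes lie above 1.5 in both groups, and of the genes drawn *Cxcl3* is lowest at -2.41 in control and -2.43 in telmisartan.

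Guanylate-binding proteins, which coat and break open microbial vacuoles, were higher in members nearly throughout. With *Gbp2* left out, 7 of the family had enough counts, all 7 were higher in members, and 6 had a log2 ratio of at least 1, with a median of 1.94. *Gbp5*, which also promotes inflammasome assembly, stood at 141 CPM in members and 25.1 CPM in other macrophages (2.49, 2.38 to 2.60). *Gbp3* stood at 110 and 28.7 CPM (1.94, 1.82 to 2.05), and *Gbp9* was the member of the family below 1, at 0.99. Immunity-related GTPases, which attack vacuole membranes or guard those of the host, gave a like picture. All 7 counted had a ratio of at least 1, with a median of 1.62. *Irgm1*, a regulatory GTPase of the family, stood at 129 and 42.7 CPM (1.60), and *Igtp*, another regulator, at 103 and 33.6 CPM (1.62, 1.51 to 1.73). *Gbp11* and *Gm12250* were absent from the count table and have no counts here.

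Among 14 genes of the interferon-gamma receptor and its signal, 4 had a log2 ratio of at least 1 and 11 were above 0, with a median of 0.37. *Irf1*, a transcription factor induced by interferon-gamma, stood at 294 CPM in members and 165 CPM in other macrophages (0.84, 0.78 to 0.90). *Socs1*, a feedback inhibitor of JAK kinases, had a ratio of 1.73. *Irf8*, a transcription factor of the myeloid lineage, stood at 282 CPM in members and 131 CPM in other macrophages. These regulators were thus higher in members. Of the receptor, *Ifngr1*, the ligand-binding chain, had a ratio of -0.30, and *Ifngr2*, the signalling chain, of 0.09, which flips in sign to -0.13 among cells of 6000 to 10000 UMIs.

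Genes of MHC class II, which presents peptides to CD4 T cells, were higher in members for 10 of 10 counted, 8 of them with a log2 ratio of at least 1, with a median of 1.17. *Ciita*, the coactivator that these genes need, had the highest log2 ratio of the list, at 94.5 CPM in members and 25.7 CPM in other macrophages (1.88, 1.76 to 2.00). *H2-Aa*, the alpha chain of I-A, stood at 5215 and 2259 CPM (1.21, 1.19 to 1.22). The cells with dendritic markers held more of this list, 49218 CPM against 27482 CPM in the other members. Without them the ratio was 1.91 for *Ciita* and 1.15 for *H2-Aa*, and it was below 1 for *Cd74* (0.98), *H2-DMb2* (0.90) and *H2-Ob* (0.78), which leaves 5 of the 8. The same 3 genes were below 1 with a sum of at least 6 UMIs. After thinning *Cd74* (0.91), *H2-DMb1* (0.97), *H2-DMb2* (0.88) and *H2-Ob* (0.24) were below 1, which leaves 4. *Ifi30* was absent from the table and is not analysed here. MHC class I and its peptide loading genes were above 0 for 22 of 22, with a median of 0.71, and 4 reached 1. Those were the peptide loading editor *Tapbpl* (1.28), the peptide transporter subunit *Tap1* (1.19), the immunoproteasome subunit *Psmb9* (1.09) and the coactivator *Nlrc5* (1.05).

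Chemokines were counted in 2 lists. Of the T cell attracting chemokines outside the rule, 4 were counted and 3 had a log2 ratio of at least 1. Besides *Cxcl10* these were *Ccl22*, a ligand of CCR4, at 1.91 (1.79 to 2.04) and *Ccl5*, which draws in effector lymphocytes, at 1.75 (1.65 to 1.86). The value of *Ccl22* came from the control pool, with a ratio of 2.36 in control and -0.41 in telmisartan, and it was 1.18 without the cells with dendritic markers and below 1 after thinning (0.96). *Ccl5* was higher in both groups, by 1.84 and 1.52. *Cxcl16*, the ligand of CXCR6, was higher by less, at 0.81 (0.77 to 0.85). *Cxcl11* was absent from the table and is not analysed here. Of 9 chemokines for neutrophils and monocytes 4 were at -1 or below and 1 was above 0, with a median of -0.99. The one above 0 was *Ccl8*, at 0.56, with 0.61 in control and -0.21 in telmisartan. *Cxcl3*, a neutrophil attractant, stood at 94.4 CPM in members and 452 CPM in other macrophages (-2.26, -2.36 to -2.17). *Cxcl1*, another ligand of CXCR2, had a ratio of -1.56, the monocyte attractant *Ccl2* of -1.08 and *Ccl3* of -1.26.

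*Cxcl10* was concentrated in part of the members. It had a UMI in 454 members (49.3%), and the tenth with the most held 66.6% of its UMIs. After thinning, a *Cxcl10* UMI was found in 38.4% of members, 13.2% of other macrophages and 10% of T reference cells, which should lack it. Before thinning the shares were 49.3%, 18.7% and 10.8%, at median depths of 10215, 7729 and 3243 UMIs. The thinned share in members lay above the interval of the T reference, 3.76 to 20.5%, and that in the other macrophages lay within it. The T reference was picked for few *Lyz2* UMIs and held 60 cells after thinning. It is therefore no measure of free RNA in macrophages, for *Cxcl10* or any other gene set against it. Background in macrophages was not measured, and no lack of *Cxcl10* in the other macrophages is read from their share.

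Checkpoint and metabolic genes were mixed. Of 12 counted, 4 had a log2 ratio of at least 1, namely *Kynu*, *Pdcd1lg2*, *Il18bp* and *Acod1*, and the median was 0.90. *Pdcd1lg2*, which encodes the checkpoint ligand PD-L2, stood at 60.4 CPM in members and 17.5 CPM in other macrophages (1.79, 1.64 to 1.94). *Cd274*, encoding PD-L1, stood at 428 and 237 CPM (0.85, 0.80 to 0.90). Both checkpoint ligands were thus higher in the members. *Nos2*, the inducible nitric oxide synthase, had a ratio of 0.94 (0.90 to 0.99). A *Nos2* UMI was found after thinning in 33.1% of members, 19.4% of other macrophages and 1.67% of T reference cells. Before thinning the shares were 47.9%, 28.9% and 3.60%, at the depths given for *Cxcl10*.

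For costimulation and cytokines, 14 genes were counted, with 6 above 0 and a median of -0.19. Of the 14, 3 had a log2 ratio of at least 1 and 2 were at -1 or below. *Cd40*, a receptor for T cell help, stood at 78.1 CPM in members and 19.7 CPM in other macrophages (1.99, 1.85 to 2.12), *Il15ra* at a ratio of 1.41 and the T cell cytokine subunit *Il27* at 1.22. The lower genes were *Il6* and *Il10*. *Il6* was at -2.06 (-2.41 to -1.72), at -4.52 after thinning and at -3.19 among cells of 6000 to 10000 UMIs. *Il10* was at -2.70 (-3.21 to -2.23) from 37 UMIs in members, 9 in control and 28 in telmisartan, although control held more UMIs in all. *Il10* encodes an anti-inflammatory cytokine and is named here after its value was seen. After thinning, its share of cells with a UMI was 0.776% in members, 2.92% in other macrophages and 6.67% in T reference cells, and before thinning 1.95%, 5.09% and 9.01%. T cells can make *Il10* themselves, so that reference gives no background value for this gene, and background was not measured.

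Genes of IL-4 type and tissue repair macrophages were mostly lower in members, with a median of -0.53 over 10 counted and 2 above 0. *Spp1*, encoding the matrix protein osteopontin, stood at 1878 CPM in members and 3286 CPM in other macrophages (-0.81, -0.83 to -0.78). The mannose receptor gene *Mrc1* stood at 262 and 419 CPM (-0.68, -0.74 to -0.62). The other macrophages include the 848 cells that the rule bars by *Cbr2*, *Folr2* and *Fcrls*, whose higher *Mrc1* level is given below. The part of the rule in the *Mrc1* ratio was not tested. *Retnla*, a gene of IL-4 activation named after its value was seen, was lowest at -3.33 (-4.66 to -2.28) from 7 UMIs in members. *Ccl17*, a CCR4 ligand of the same list, was at 1.66, and at 1.22 without the cells with dendritic markers. That value too came from control, with 1.70 there and -0.15 in telmisartan. Of 11 hypoxia genes 1 was above 0 and none was at 1 or -1, with a median of -0.28. The hypoxia gene *Ero1l*, now also written *Ero1a*, was at -0.43. Complement genes had a median of 0.32 over 9, with *C3*, the central component, at 1.39. Among 11 genes of cell death and pathogen sensing the median was 0.61, with the nucleic acid sensor *Zbp1* at 1.36 and the death receptor *Fas* at 1.25.

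The 15 genes lowest in the members among those with at least 200 UMIs there, a list chosen after the values were seen, ran from *Cxcl3* at -2.26 to *Vcan* at -1.16. *F13a1*, a coagulation factor gene of monocytes and repair macrophages, stood at 126 CPM in members and 454 CPM in other macrophages (-1.85, -1.93 to -1.76). The platelet factor gene *Pf4* stood at 254 and 809 CPM (-1.67, -1.73 to -1.61). *Thbs1*, a matrix glycoprotein gene, stood at 702 and 2064 CPM (-1.56, -1.59 to -1.52), and the heme-degrading enzyme gene *Hmox1* at 149 and 419 CPM (-1.49, -1.57 to -1.42). These genes were picked by value, so no shared theme is read from them.

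Type I interferon stimulated genes were above 0 in members for 18 of 18, with a median of 0.82 and 4 at 1 or more, *Ifit2*, *Ifit3*, *Mx1* and *Oasl2*. In 219 macrophages with at least 5 UMIs over *Rsad2*, *Ifit1*, *Ifit2* and *Ifit3* that were not members, the list summed to 5569 CPM, against 834 CPM in members, and several of its genes chose those cells. *Cxcl9*, in turn, was at 105 CPM in those cells. *Cxcl10* was at 1703 CPM there, so it was not particular to the members. Some lists of the interferon-gamma program were not particular to them either. Summed without the choosing genes, in those cells and in members, guanylate-binding proteins were at 809.6 and 834 CPM and immunity-related GTPases at 919 and 596 CPM. Interferon-gamma signal genes were at 2711 and 2473 CPM and T cell attracting chemokines at 2117 and 2144 CPM. MHC class I and peptide loading genes were at 16284 and 16753 CPM, and genes of cell death and pathogen sensing at 1524 and 1116 CPM. Checkpoint and metabolic genes were at 7280 and 4646 CPM. MHC class II differed, at 14938 CPM in those cells and 29131 CPM in members, and complement was at 4479 and 5375 CPM. Both criteria were met by 74 members, 47 control and 27 telmisartan. In 848 macrophages with at least 3 UMIs over *Cbr2*, *Folr2* and *Fcrls*, *Mrc1* stood at 902 CPM and *Apoe* at 4303 CPM, against 262 and 984 CPM in members. A further 91 macrophages met the *Cxcl9* and sum criteria but were kept out by that last sum.

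As description, since *Cxcl9* also chose the members, other genes were set against its level. Members were split into quartiles by *Cxcl9* as a share of each cell's UMIs, with *Cxcl9* then left out of the totals. *Cxcl10* stood at 875, 1015, 1194 and 1979 CPM from the lowest to the highest quartile. The guanylate-binding proteins other than *Gbp2* went from 701 to 1083 CPM and the immunity-related GTPases other than *Iigp1* from 527 to 749 CPM. *Cd40* went from 44.1 to 137 CPM. On the other side, *Spp1* went from 2326 to 1526 CPM and *Cxcl3* from 162 to 20.7 CPM. Other genes were not ordered in this way. MHC class II had 28352, 26665, 30112 and 31773 CPM, *Irf1* 293, 286, 303 and 299.8 CPM, *Cd274* 442, 411, 423 and 439 CPM, and *Ciita* 95.6, 83.8, 92.9 and 107 CPM. The highest quartile held 191 control and 40 telmisartan members, and the lowest 153 and 77, so the quartiles also differ in their mix of groups.

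Within the members, telmisartan and control were compared for 5705 genes with at least 200 UMIs. With telmisartan 48 genes (0.841%) were higher by a log2 ratio of at least 1 and 15 (0.263%) were lower by as much, with a median of -0.04 over all. The same pools give the other macrophages, so the 2 comparisons share their source. Values there are given for some genes. Of the 48 higher genes, 48 had the same sign in other macrophages and 20 were also at 1 or more there. Of the 15 lower genes, 12 had the same sign there and 4 were also at -1 or below. *Ccl22*, *Ccr7* and *Fscn1* had the opposite sign. Over all 5705 genes, 2420 were above 0 in other macrophages. After thinning with the rule applied again, members were 352 control and 138 telmisartan cells, and 6 genes were higher and 3 lower. Of those, 4 and 1 were among the 48 and 15. Fewer UMIs and other members came with that setting together, and their parts cannot be told apart. The shares of cells with a UMI after thinning, by contrast, keep the members as first chosen.

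Next come lists of the interferon-gamma program with telmisartan, with MHC class II after them. Guanylate-binding proteins had a median log2 ratio of -0.23 over 7, with none at 1 or -1. Immunity-related GTPases had a median of 0.16 over 6, which became -0.00 when genes with at least 100 UMIs were taken. Interferon-gamma signal genes had a median of 0.16 over 14, and again none reached 1 or -1. As summed lists, guanylate-binding proteins had a ratio of -0.28 in members and -0.13 in other macrophages. Immunity-related GTPases had 0.32 and 0.38, and signal genes 0.16 and 0.20. *Irf1* stood at 264 CPM in control and 383 CPM in telmisartan members (0.54, 0.43 to 0.65). *Irgm1* was higher in telmisartan, at 110 and 186 CPM (0.76, 0.59 to 0.92). Of the genes that chose the members, *Cxcl9* stood at 3509 CPM in control and 2552 CPM in telmisartan, and *Gbp2* at 927 and 914 CPM. *Cxcl10* was at 1223 and 1371 CPM (0.17, 0.11 to 0.22). It had a ratio of -0.14 among cells of 6000 to 10000 UMIs, an alternative chosen after the data were seen.

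MHC class II was lower in telmisartan members for 9 of 9 genes counted, with a median log2 ratio of -0.49 and none at -1. *Ciita* stood at 108 CPM in control and 56.3 CPM in telmisartan (-0.94, -1.21 to -0.68). A *Ciita* UMI was found after thinning in 22.3% of control members, 12.9% of telmisartan members and 1.67% of T reference cells, and before thinning in 46.2%, 29.2% and, for the T reference, 5 of 111 cells, at median depths of 10829.5, 9087 and 3243 UMIs. *H2-Aa* stood at 5684 and 3866 CPM (-0.56, -0.59 to -0.52), and *Cd74*, the invariant chain gene, at 9317 and 6693 CPM (-0.48, -0.50 to -0.45). Without the cells with dendritic markers the ratios were -0.91, -0.57 and -0.47 for these 3 genes. MHC class I genes had a median of 0.04 over 22, with a sign that flips to -0.01 among cells of 6000 to 10000 UMIs. In other macrophages *H2-Aa* had a ratio of -0.28 and *Ciita* of -0.63. Among members against other macrophages *H2-Aa* was at 1.21 in control and 0.94 in telmisartan.

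Type I interferon stimulated genes were higher in telmisartan members for 16 of 16 counted, with a median log2 ratio of 0.64 and 5 at 1 or more. *Rsad2*, an antiviral enzyme, stood at 53.8 CPM in control and 169 CPM in telmisartan (1.65, 1.45 to 1.86). *Oasl1* had a ratio of 1.51 (1.19 to 1.84), *Mx1* of 1.13, *Ifit1* of 1.10 and *Isg15*, a ubiquitin-like modifier, of 1.01. Of these 5 only *Oasl1* was at 1 or more in every setting. Among cells of 6000 to 10000 UMIs *Rsad2* was at 0.83, *Mx1* at 0.36, *Ifit1* at 0.26 and *Isg15* at 0.97, and *Ifit2*, at 0.66 over all members, flips in sign to -0.19. Without the cells with dendritic markers *Mx1* was at 0.81, *Ifit1* at 0.62 and *Ifit2* at 0.04, and after thinning *Ifit1* was at 0.35. The size of these differences thus depends on the cells taken. A *Rsad2* UMI was found after thinning in 7.21% of control members, 12.9% of telmisartan members and 3.33% of T reference cells, and before thinning in 10.9%, 20.7% and 2.70%. The thinned share in telmisartan members lay above 0.406 to 11.5%, the interval of the pooled T reference, which includes the control share. Its own interval of 9.09 to 17.5% overlapped that one. The 40 T reference cells of the telmisartan pool gave 0.0633 to 13.2%, which includes 12.9%. In other macrophages the summed list had a ratio of 0.96 (0.93 to 1.00), near the 0.86 (0.79 to 0.92) of the members.

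The other lists are given here for telmisartan over control. Checkpoint and metabolic genes had a median log2 ratio of -0.04 over 11 and genes of cell death and sensing of 0.08 over 11. Hypoxia genes had a median of 0.06 over 11. Complement genes had -0.02 over 8, a sign that flips in 4 settings, as with 0.23 after thinning. T cell attracting chemokines outside the rule had -0.19 over 4, and 0.07 after thinning over the 2 genes left. Costimulation and cytokine genes had 0.31 over 8. Chemokines for neutrophils and monocytes had 0.13 over 9, with *Cxcl1* past 1 and *Ccl8* past -1 in the other direction. IL-4 type and repair genes had -0.68 over 8, and 7 of those 8 were below 0. Summed over the 11 genes of that list outside the rule, the ratio was -0.31 in members and -0.36 in other macrophages, so it was not particular to the members. *Mmp12*, a macrophage elastase gene of that list, stood at 860 CPM in control and 450.0 CPM in telmisartan (-0.93, -1.03 to -0.84). Macrophage markers had 0.13 over 12, with *Apoe* at 798 and 1519 CPM (0.93, 0.87 to 0.99).

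**Figure D3:**
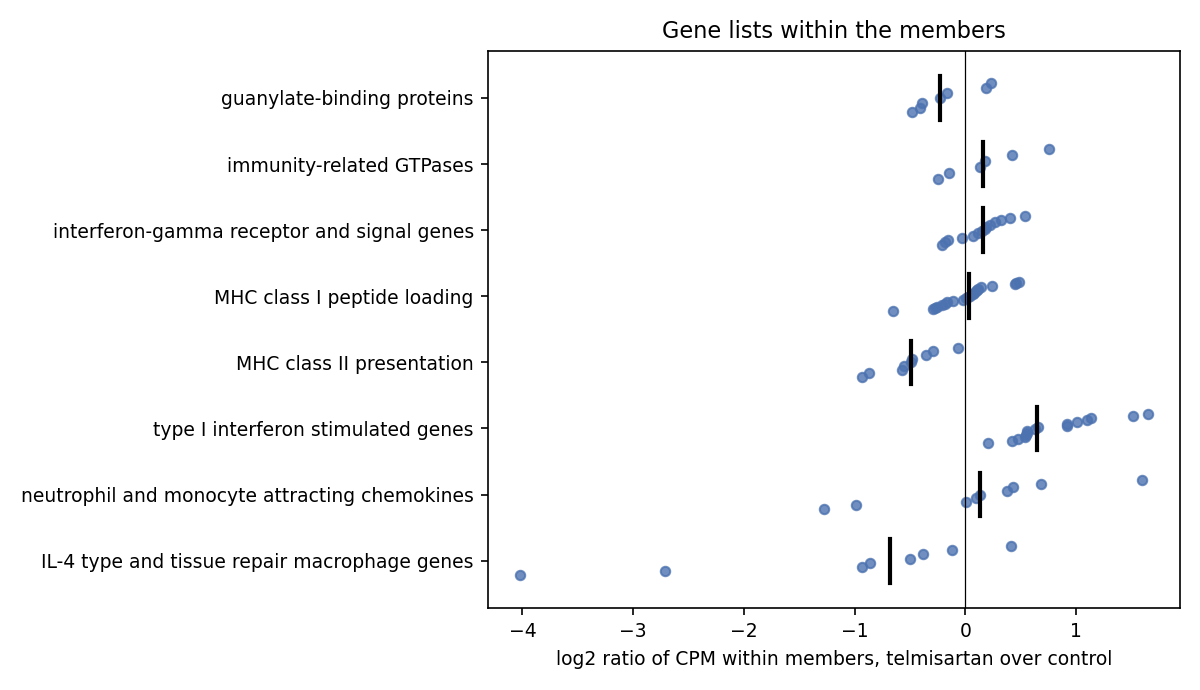
Log2 ratio of CPM of telmisartan over control within the members (horizontal axis) for 8 gene lists, with 1 point per gene with at least 200 UMIs and a black bar at the list's median. Type I interferon stimulated genes have a median of 0.64 and MHC class II genes of -0.49, while guanylate-binding proteins have a median of -0.23.

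Among the largest single differences, *Slfn4*, a Schlafen gene of myeloid cells, stood at 54.4 CPM in control and 220.4 CPM in telmisartan members (2.02, 1.83 to 2.21). *Dusp2*, a phosphatase of MAP kinases, had a ratio of 1.95 (1.70 to 2.21). In other macrophages *Slfn4* was at 1.47 and *Dusp2* at 1.72. The nuclear receptor gene *Nr4a3* had a ratio of 1.56 (1.40 to 1.73), and 1.44 in other macrophages. *Cxcl1* stood at 150 and 452 CPM (1.59, 1.47 to 1.71), with 0.98 in other macrophages. The other large ones were *Ccdc162*, *Dot1l*, *Vps37b* and *Nfkbie*, besides *Rsad2* and *Oasl1*. Of 7 monocyte markers counted, 3 were above 0 and 4 below, and the median of -0.11 flips in sign to 0.19 among cells of 6000 to 10000 UMIs and to 0.38 with genes of at least 1 UMI. The 2 at 1 or more were *Ly6c2*, with a ratio of 1.39 (1.22 to 1.56), and *Plac8*, with 1.20 (1.02 to 1.37) and with -0.30 after thinning. *Ccr2*, the receptor for *Ccl2*, was at -0.43. A *Ly6c2* UMI was found after thinning in 14.6% of control members, 29.5% of telmisartan members and 43.3% of T reference cells, and before thinning in 28.8%, 45.4% and 48.6%. *Ly6c2* is a gene that T cells also express, so that reference gives no background value and background was not measured for it.

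On the lower side the 10 lowest genes were picked by value. *Ccl24*, an eosinophil attractant, had 280 UMIs in control and 6 in telmisartan members (-4.02, -5.48 to -2.88), and its UMIs lay in 53 cells. *Ccl17* stood at 280.1 CPM in control and 42.7 CPM in telmisartan (-2.71, -3.01 to -2.43), and *Ccl22* at 115 and 19.6 CPM (-2.56), where in other macrophages its ratio was 0.21 (0.05 to 0.37). A single member held 232 of the 876 *Ccl22* UMIs. Without the cells with dendritic markers the ratios were -3.67, -2.35 and -1.70 for these 3 genes, so all kept their direction. A *Ccl22* UMI was found after thinning in 6.58% of control members, 4.55% of telmisartan members and 6.67% of T reference cells, and a *Ccl17* UMI in 11.3%, 5.68% and 6.67%. Before thinning the shares were 12.0%, 8.12% and 6.31% for *Ccl22* and 15.4%, 8.86% and 6.31% for *Ccl17*, at the depths given for *Ciita*. The thinned shares lay within the interval of the T reference, 1.85 to 16.2%, so no expression is read from these shares. The UMIs were unevenly spread over cells, and the part of free RNA in the ratios was not tested. *Mgl2*, a lectin gene of IL-4 activated macrophages and dendritic cells, stood at 623 and 211 CPM (-1.56, -1.69 to -1.43) and had a ratio of -1.43 without those cells. *Plet1*, *Fscn1* and *Ccr7* had ratios of -1.67, -1.52 and -1.25. These last 3 did not hold, since without the cells with dendritic markers the ratios were -0.19, 1.68 and 0.85. The remaining genes of the 10 lowest were *Cd200r1*, *Ccl8* and *Tnfrsf9*, at -1.35, -1.28 and -1.12. In other macrophages *Ccl24* was at -2.17, *Mgl2* at -1.04, *Tnfrsf9* at -1.04 and *Ccl17* at -0.86. There *Ccl8* was at -0.47, *Cd200r1* at -0.30 and *Plet1* at -0.01, while *Ccr7* and *Fscn1* were above 0, at 1.45 and 0.68.

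Transcripts of the drug's own targets were scarce. *Agtr1a*, encoding the receptor that telmisartan blocks, had 7 UMIs in the members and *Agtr2* had 0, which in 921 cells is not detectable at this depth. *Pparg*, encoding a nuclear receptor that telmisartan partly activates, had 26 UMIs, 19 in control and 7 in telmisartan.

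To describe promoter sequence of the leading genes, promoters of 300 bases (250 before and 50 after the gene start) were taken from RefSeq, build GRCm38.p6, and searched on both strands. The first motif was TTCNNNGAA, the form known from promoters that interferon-gamma activates, and the second was GAAA, any 2 bases, GAAA, or its reverse complement, the form known from interferon-stimulated promoters. Of 27025 promoters 8.47% held the first and 3.49% the second. Among guanylate-binding proteins 5 of 11 matched the table, of which 2 held the first motif and 5 the second. Of the immunity-related GTPases 7 of 11 matched, with 5 and 6. For the 15 leading genes 9 matched, with 2 and 4, and 1 gene held both, so not all of them share a motif. Of the neutrophil and monocyte attracting chemokines 6 of 9 matched and 0 held either. *Cxcl9* had neither in this window, which says only that these letters are not in it. A match is a description of letters and not a site. The genes without an entry included *Iigp1*, *Gbp4*, *Gbp6*, *Batf2*, *Dnase1l3*, *Ly6a* and *Gm4951*. Below are some of the promoters that hold a motif, of 2 choosing genes (*Gbp2* and *Serpina3g*), 3 leading genes (*Gbp5*, *Cxcl10* and *Calhm6*) and 2 genes of the GTPase families (*Gbp3* and *Igtp*), 5′ to 3′ on the strand of the gene, with the motif in capitals. They are *Gbp2* at chr3:142620413-142620712 (plus strand), *Gbp3* at chr3:142559794-142560093 (plus strand), *Gbp5* at chr3:142496684-142496983 (plus strand), *Cxcl10* at chr5:92348840-92349139 (minus strand), *Calhm6* at chr10:34127923-34128222 (minus strand), *Serpina3g* at chr12:104235897-104236196 (plus strand) and *Igtp* at chr11:58199306-58199605 (plus strand).
Gbp2: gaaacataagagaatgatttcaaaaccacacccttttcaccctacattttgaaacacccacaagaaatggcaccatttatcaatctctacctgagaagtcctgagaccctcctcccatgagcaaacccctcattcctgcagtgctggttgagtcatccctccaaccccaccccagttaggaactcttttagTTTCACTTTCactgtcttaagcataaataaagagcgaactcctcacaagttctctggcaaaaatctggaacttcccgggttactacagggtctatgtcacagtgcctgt
Gbp3: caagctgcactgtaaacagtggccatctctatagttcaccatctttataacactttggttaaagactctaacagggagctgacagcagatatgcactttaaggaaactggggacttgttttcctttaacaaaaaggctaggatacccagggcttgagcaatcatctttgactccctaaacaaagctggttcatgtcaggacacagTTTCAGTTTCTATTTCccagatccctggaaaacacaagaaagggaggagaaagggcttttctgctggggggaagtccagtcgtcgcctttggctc
Gbp5: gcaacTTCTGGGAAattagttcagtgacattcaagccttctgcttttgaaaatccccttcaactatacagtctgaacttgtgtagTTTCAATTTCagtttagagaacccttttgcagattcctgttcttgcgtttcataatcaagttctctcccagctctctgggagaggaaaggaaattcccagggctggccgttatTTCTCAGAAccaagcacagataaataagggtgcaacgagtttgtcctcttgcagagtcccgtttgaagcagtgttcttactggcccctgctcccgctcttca
Cxcl10: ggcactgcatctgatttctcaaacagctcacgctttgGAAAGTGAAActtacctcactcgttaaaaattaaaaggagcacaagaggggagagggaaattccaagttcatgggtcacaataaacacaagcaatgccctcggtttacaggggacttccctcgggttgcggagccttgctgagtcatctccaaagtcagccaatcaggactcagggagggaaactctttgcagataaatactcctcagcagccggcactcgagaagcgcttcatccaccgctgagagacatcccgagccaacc
Calhm6: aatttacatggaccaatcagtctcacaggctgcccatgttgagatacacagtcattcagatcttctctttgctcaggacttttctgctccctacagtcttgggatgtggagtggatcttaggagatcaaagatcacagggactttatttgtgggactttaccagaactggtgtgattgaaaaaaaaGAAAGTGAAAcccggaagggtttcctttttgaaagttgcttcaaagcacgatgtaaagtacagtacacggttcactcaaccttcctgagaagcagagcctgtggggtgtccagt
Serpina3g: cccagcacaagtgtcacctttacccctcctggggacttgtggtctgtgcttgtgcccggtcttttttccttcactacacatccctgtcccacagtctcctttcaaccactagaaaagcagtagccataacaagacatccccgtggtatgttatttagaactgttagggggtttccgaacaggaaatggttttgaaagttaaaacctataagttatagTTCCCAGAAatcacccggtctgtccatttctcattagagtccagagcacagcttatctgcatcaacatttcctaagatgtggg
Igtp: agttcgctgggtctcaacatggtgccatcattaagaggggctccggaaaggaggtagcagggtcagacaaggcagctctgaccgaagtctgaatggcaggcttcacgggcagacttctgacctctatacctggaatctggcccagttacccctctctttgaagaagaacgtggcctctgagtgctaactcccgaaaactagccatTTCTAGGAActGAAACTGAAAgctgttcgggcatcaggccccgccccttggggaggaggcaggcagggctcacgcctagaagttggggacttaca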

How the data were processed

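CD45+ tumor cells of both groups were measured as single-cell RNA in 1 capture. The deposited tables hold a UMI count for each gene and cell and a read count for each Sample Tag and cell, made by the authors with the BD Rhapsody WTA Analysis Pipeline 1.11 on GRCm38 with GENCODE M19. Kept cells had at least 10 Sample Tag reads with at least 75% on the tag of 1 group, between 150 and 5000 genes, and no more than 20% of UMIs from mitochondrial genes. The 10 tag columns of no sample held 0.0794% of 8041345 tag reads. UMI sums were scaled to CPM (pandas 2.3.3, numpy 2.4.6), intervals came from scipy 1.17.1 under Python 3.11.15, and the calculation was tested on simulated data. Gene positions are those of GENCODE on GRCm38. A gene was compared within members with at least 200 UMIs there, and against other macrophages with at least 200 UMIs in both sets together. Named genes were the 4 choosing genes, list genes with at least 50 UMIs in members, the 15 highest against other macrophages with 200 UMIs in members and the 10 largest differences in each direction with telmisartan. Not every named gene is discussed. The members and lists were chosen with earlier results of these data known. Other settings, 13 in number, covered quality limits, thresholds of the rule, thinning, scaling (TMM of edgeR 4.0.16 in R 4.3.3) and count minimums, and 2 more were chosen after seeing the data. The tag call removes doublets between the pools, and those within a pool stay. The automatic threshold of Scrublet (scanpy 1.11.5) marked 0 cells, so the highest 9.5% of scores were removed as an alternative.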

Additional observations from a re-analysis of the deposited data

Results flagged for a closer look

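*Ccr7* had a log2 ratio of telmisartan over control of -1.25 within the members and of 1.45 in other macrophages, so the signs were opposite. *Fscn1* had -1.52 within the members and 0.68 in other macrophages. *Ccl22* was opposite too, at -2.56 and 0.21, but a value of at least 0.5 in both sets was asked for here. These differences between cell sets were not tested. The 57 members with dendritic cell markers held 196 of 219 *Ccr7* UMIs and 207 of 222 *Fscn1* UMIs, and their part in the result was not tested beyond the values without them. Without them the ratios within the members were 0.85 for *Ccr7* and 1.68 for *Fscn1*, and after thinning 1.67 and 0.0879. Among cells of 6000 to 10000 UMIs they were -2.63 and 2.21. The opposite signs thus depend on the cells taken.

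Cells outside the comparisons also met the criteria of the members. Of 1580 cells with Sample Tag reads split between tags, 646 were macrophages by the same criteria and 85 met the rule, 13.2% of those macrophages. Of 90 tagged cells with over 5000 genes, 15 were macrophages and 6 met it. Of 7056 tagged cells with over 20% mitochondrial UMIs, 1877 were macrophages and 27 met it (1.44%, 0.950 to 2.09). These cells belong to no group or lie beyond a quality limit, and they enter no comparison.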

How the results depend on the processing

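Control kept a higher share of members than telmisartan under each alternative that changes which cells are counted, and scaling and count minimums do not bear on these shares. With at most 10% mitochondrial UMIs the shares of kept cells were 14.4% and 6.47%, and 18.4% of control macrophages were members. With at least 4 *Cxcl9* UMIs they were 11.5% and 4.90% of kept cells and 15.1% and 6.87% of macrophages. With a sum of at least 6 they were 9.53% and 3.64%, and 12.5% and 5.10%. Thinned to 3000 UMIs they were 7.92% and 3.55%, and 9.60% and 4.43%. In cells of 6000 to 10000 UMIs, 14.1% and 6.90% of kept cells were members.

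Within members, thinning with the rule applied again gave 6 higher and 3 lower genes. In cells of 6000 to 10000 UMIs 25 genes were higher and 11 lower, of which 14 and 5 were among the main 48 and 15. With at least 100 UMIs 39 genes were lower, and 232 were lower against other macrophages. With at least 1 UMI the counts were 2386 higher and 4334 lower within members, and 2262 and 6521 against other macrophages.

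Reversed values with telmisartan were *Ccr7* 1.67, *Fscn1* 0.0879, *Plet1* 1.35 and *Plac8* -0.30 after thinning, *Ccr7* 0.85 and *Fscn1* 1.68 without cells with dendritic markers, and *Fscn1* 2.21 in cells of 6000 to 10000 UMIs. Against other macrophages they were *Plet1* -2.35 after thinning, *Fscn1* -0.47 and *Plet1* -0.95 without those cells, and *Fscn1* -1.64 in cells of 6000 to 10000 UMIs. The cause was not tested.

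Over 218 named genes, 2930 values with telmisartan stayed within their interval, 330 moved and 7 reversed, and against other macrophages 2663, 603 and 4. Those that stayed include values under the count minimums, which cannot change a gene's ratio, and under TMM, which shifts all genes alike. The tally is therefore no measure of stability. Reversed means a sign change of a value at 1 or -1 or beyond. Smaller values that changed sign, such as *Cxcl10*, *Ifit2* and *Cxcl3* (-0.98 to 0.34) with telmisartan in cells of 6000 to 10000 UMIs, are among those that moved. With 1 pool per group no difference between groups can be tested, and genes with few UMIs in 271 telmisartan members have wide intervals. No paired analysis was possible because each group is 1 pool of mice.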
